A study of Mus musculus with 4 samples.

Results

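B-lymphoid and recombination genes were followed as a set of 10 genes, Il7r, Ebf1, Pax5, Rag1, Rag2, Dntt, Igll1, Cd79a, Cd79b and Blnk, named by symbol among 24016 gene symbols. The study compared RNA of blood stem cells from C57BL/6 mouse bone marrow, taken at 4 months of age, between wild type (WT) mice (2 libraries) and NHD13+ mice (2 libraries). The sort, which both groups shared, kept cells without lineage markers that carried Sca-1, c-Kit and CD150 and lacked CD34 and Flt3. NHD13 mice carry a fusion of NUP98 with HOXD13 and are a model of myelodysplastic syndrome. The published transgene is driven by Vav1 regulatory elements, which are active in blood cells of most lineages. The labels name no promoter and do not say how many animals went into a library, so a p-value here weighs a difference against the spread of 2 libraries per group, which may be technical. Library depth, with a single transcript kept for each gene, ran from 35025974 to 48423689 counts. Levels are given as CPM, the counts per 1000000 after scaling with the TMM factors of edgeR, and a gene is said to be called where its adjusted p was under 0.05.

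B cells arise in the marrow from stem cells by way of lymphoid progenitors. Interleukin 7, read by a receptor whose alpha chain is encoded by Il7r, keeps those progenitors alive, and the transcription factors Ebf1 and Pax5 set the B-cell programme. Rag1 and Rag2 cut the antibody and T-cell receptor genes, and Dntt, the terminal transferase TdT, adds bases at the cut ends, so these 3 genes work in early B and T cells alike. Igll1 encodes lambda5, part of the surrogate light chain of the pre-B-cell receptor. Cd79a and Cd79b encode the signalling chains Ig-alpha and Ig-beta, and Blnk encodes the adaptor that links that receptor to downstream enzymes.

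Among the 10 genes, Cd79a rose in NHD13 cells, to 12.7 CPM ± 1.97 (SD, n = 2) from 4.05 ± 0.774. Il7r and Dntt were high in NHD13 library 2 alone, at 14.4 and 22.1 CPM, and at most 1.66 CPM in any other library. Cd79b was the most abundant member per transcript length and did not pass the test, at 70.5 ± 8.05 CPM in WT and 74.8 ± 1.16 in NHD13. Pax5, Rag1, Rag2, Ebf1 and Igll1 did not exceed 1.31 CPM in any of the 4 libraries. In bulk RNA, a change in the number of cells of a type and a change in RNA per cell cannot be told apart.

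The promoters of the 4 members with an unadjusted p under 0.05 are shown, Il7r and Dntt, which were high in 1 NHD13 library, and Cd79a and Blnk, which were higher in both. Each is the 250 bases before the annotated start, written 5′ to 3′ on the gene's strand, from RefSeq on GRCm38.p6, whereas the counts were made on mm9. They lie at chr15:9529877-9530126 (Il7r, minus strand), chr19:41029025-41029274 (Dntt, plus strand), chr7:24897247-24897496 (Cd79a, plus strand) and chr19:40994222-40994471 (Blnk, minus strand). Capitals mark matches on either strand to any of 5 short motifs, namely the full palindromic EBF1 site, CCCNNGNG (a relaxed EBF1 core), CAGGTG (an E protein site), TGTGGT (Runx) and GAGGAA (PU.1).
Il7r: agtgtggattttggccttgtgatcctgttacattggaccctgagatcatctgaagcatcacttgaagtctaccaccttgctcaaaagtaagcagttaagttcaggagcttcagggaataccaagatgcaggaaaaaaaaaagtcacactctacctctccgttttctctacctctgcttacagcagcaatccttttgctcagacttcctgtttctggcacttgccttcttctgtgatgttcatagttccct
Dntt: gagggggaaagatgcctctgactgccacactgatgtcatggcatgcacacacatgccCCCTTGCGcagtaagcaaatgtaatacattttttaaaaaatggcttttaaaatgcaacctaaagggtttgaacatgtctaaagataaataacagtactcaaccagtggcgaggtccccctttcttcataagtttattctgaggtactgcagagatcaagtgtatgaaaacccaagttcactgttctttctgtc
Cd79a: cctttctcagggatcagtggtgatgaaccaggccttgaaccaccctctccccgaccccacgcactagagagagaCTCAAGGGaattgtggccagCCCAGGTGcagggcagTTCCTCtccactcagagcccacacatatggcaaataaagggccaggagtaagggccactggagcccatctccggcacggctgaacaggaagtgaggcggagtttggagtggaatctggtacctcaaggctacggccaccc
Blnk: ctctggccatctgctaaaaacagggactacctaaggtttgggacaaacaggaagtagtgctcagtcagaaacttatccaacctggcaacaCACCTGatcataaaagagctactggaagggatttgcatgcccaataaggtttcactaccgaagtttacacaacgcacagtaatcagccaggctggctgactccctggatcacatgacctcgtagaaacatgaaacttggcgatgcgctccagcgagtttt

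Within these windows the Cd79a promoter held the most matches of the 4, with 2 to the relaxed EBF1 core, 1 to the E protein site and 1 to the PU.1 site. The E protein letters lie inside the second EBF1 match, 154 to 149 bases before the start. The Blnk window held 1 E protein match, the Dntt window 1 relaxed EBF1 match and the Il7r window none of the 5 motifs. Of 32851 promoters of this length in the table, 45.9% held the relaxed EBF1 core, 17.2% the E protein site, 23.3% the PU.1 site, 14.0% the Runx site and 0.779% the full EBF1 site. Promoters were matched for 9 of the 10 members, all but Cd79b, and none of their 10 windows held the full EBF1 site. A match here describes letters only.

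For Il7r, the receptor gene of the set, WT gave 27 and 4 counts and NHD13 gave 28 and 704, which is 0.621, 0.109, 0.815 and 14.4 CPM. Both NHD13 libraries lay above both WT libraries, but NHD13 library 1 was close to WT library 1. Between the NHD13 libraries the level differed 17.6-fold, with a 95% exact binomial interval of 12.1 to 26.7 that covers counting error only. NHD13 over WT, the log2 fold change was 4.35 ± 1.57 (SE). Its adjusted p was 0.167 by edgeR's quasi-likelihood test, 0.00389 by DESeq2 and 0.437 by limma-voom. When NHD13 library 2 was left out the log2 fold change was 1.15 (adjusted p 0.620 by edgeR).

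**Figure D1:**
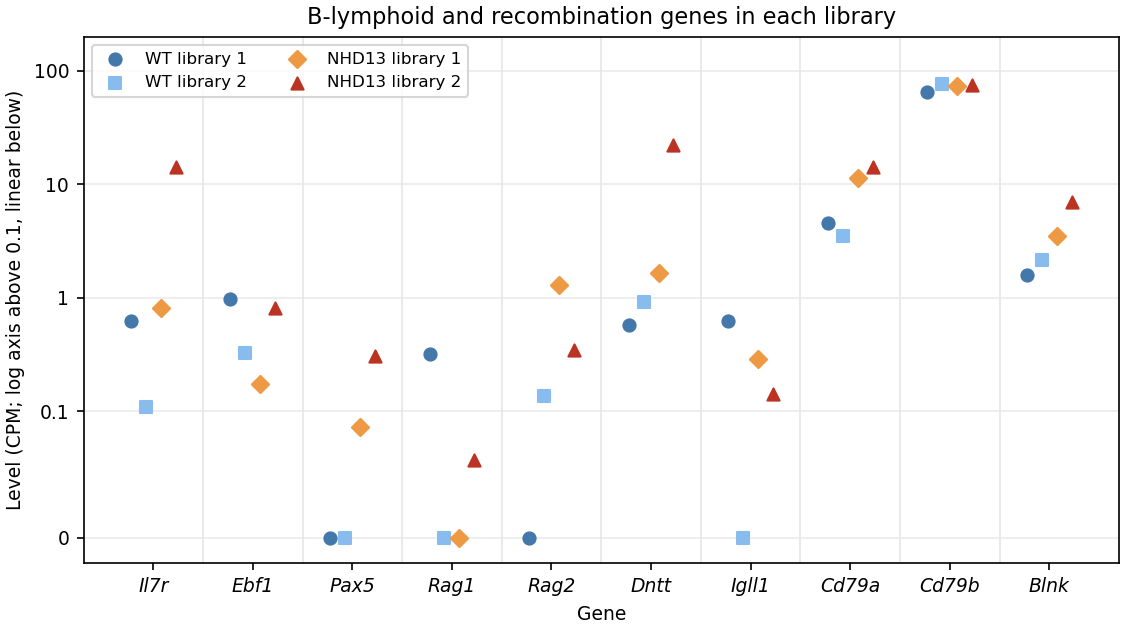
Level of each of the 10 genes in CPM (vertical axis, logarithmic above 0.1 and linear below) in the 4 libraries, 1 symbol per library. Il7r and Dntt stand high only in NHD13 library 2, at 14.4 and 22.1 CPM, Cd79a separates the groups, and Cd79b lies between 64.8 and 76.2 CPM throughout.

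The transcription factor genes Ebf1 and Pax5 were near the limit of detection. WT gave 43 and 12 counts of Ebf1 and NHD13 gave 6 and 40, so the groups overlapped, and its log2 fold change was -0.39 ± 0.96 (adjusted p 0.831 by edgeR). Ebf1 is represented by 1 of its 4 transcripts. For Pax5 both WT libraries were at 0, NHD13 gave 3 and 15 counts, and the gene did not pass the filter on low counts. Set against a floor of 3 counts over the WT group, its NHD13 level was at least 5.76-fold higher, yet the higher library held only 0.306 CPM. Without the filter its adjusted p was 0.232 by edgeR. In Gencode M21 (GRCm38) Pax5 shares 636 of its 8853 exonic bases with 5730488B01Rik on the other strand, which had 1, 0, 5 and 17 counts, and no source used here says whether counting used strand, so reads within the shared bases cannot be assigned to either gene.

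Neither recombinase gene was called, and only Rag2 was tested. For Rag1, WT gave 14 and 0 counts and NHD13 gave 0 and 3, too few for the filter. Its pooled NHD13 to WT ratio was 0.206, with a 95% exact binomial interval of 0.0379 to 0.737 for counting error only, but all WT counts came from library 1. For Rag2, WT gave 0 and 5 counts and NHD13 gave 45 and 17, or 0, 0.137, 1.31 and 0.347 CPM. Its groups did not overlap, and the highest level was in NHD13 library 1, not library 2. Rag2 had a log2 fold change of 3.59 ± 1.43, with an adjusted p of 0.195 by edgeR and 0.171 by DESeq2, and the gene passed the filter only through its NHD13 libraries. Rag2 shares 208 of its 3424 exonic bases with B230118H07Rik on the other strand. Rag1 shares 80 of 6608 with it on the same strand. Counts of B230118H07Rik were 1523 and 1141 in WT against 963 and 959 in NHD13. Its part in the counts of Rag1 and Rag2 was not tested.

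Dntt, the terminal transferase gene, was like Il7r highest in NHD13 library 2, though the WT libraries ran in the opposite order. WT gave 25 and 34 counts of it and NHD13 gave 57 and 1083, or 0.575, 0.931, 1.66 and 22.1 CPM. NHD13 library 2 was 13.3-fold above NHD13 library 1 (95% exact binomial interval 10.2 to 17.7, counting error only). Dntt had a log2 fold change of 3.98 ± 1.27, with an adjusted p of 0.136 by edgeR, 0.00078 by DESeq2 and 0.408 by limma-voom. With NHD13 library 2 left out, the log2 fold change of Dntt was 1.14, and with NHD13 library 1 left out it was 4.89. The latter fit rests on the 1 NHD13 library in which Dntt was high. Il7r and Dntt were the 2 of 8 tested members with a more than 10-fold excess in NHD13 library 2 over library 1, an excess that 1.51% of all 14853 tested genes had.

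Cd79a and Cd79b, whose proteins pair in the B-cell receptor, are given side by side, as the difference between them was not tested. WT gave 200 and 128 counts of Cd79a and NHD13 gave 389 and 691, at 4.60, 3.50, 11.3 and 14.1 CPM. Both NHD13 libraries were above both WT libraries. The log2 fold change was 1.65 ± 0.26, a 3.14-fold rise, with an adjusted p of 0.0454 by edgeR, 2.13e-05 by DESeq2 and 0.0431 by limma-voom. By edgeR the call of Cd79a was lost without each library in turn, with a log2 fold change of 1.85 (adjusted p 0.221) without WT library 1, 1.47 (0.221) without WT library 2, 1.81 (0.0879) without NHD13 library 1 and 1.49 (0.0740) without NHD13 library 2. It was also lost with library totals only (0.0553) and with counts summed over transcripts (0.0583).

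WT gave 2820 and 2785 counts of Cd79b and NHD13 gave 2543 and 3707, which is 64.8, 76.2, 74.0 and 75.7 CPM. The groups overlapped, and Cd79b had a log2 fold change of 0.09 ± 0.12 (adjusted p 0.681 by edgeR), or -0.032 without WT library 1. Igll1, of the surrogate light chain, was counted 27 and 0 times in WT against 10 and 7 in NHD13. These groups overlapped too, with a log2 fold change of -0.56 ± 1.56 (adjusted p 0.854) that took the other sign without WT library 1, where it was 6.12. The WT libraries thus differed more from each other than the groups did.

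Blnk, the adaptor gene, lay higher in both NHD13 libraries, with 120 and 344 counts against 69 and 79 in WT. Its levels were 1.59 and 2.16 CPM in WT and 3.49 and 7.02 in NHD13, and the groups did not overlap. Blnk had a log2 fold change of 1.49 ± 0.46, with an adjusted p of 0.131 by edgeR, 0.0488 by DESeq2 and 0.145 by limma-voom. Leaving out NHD13 library 2 gave 0.90.

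**Figure D2:**
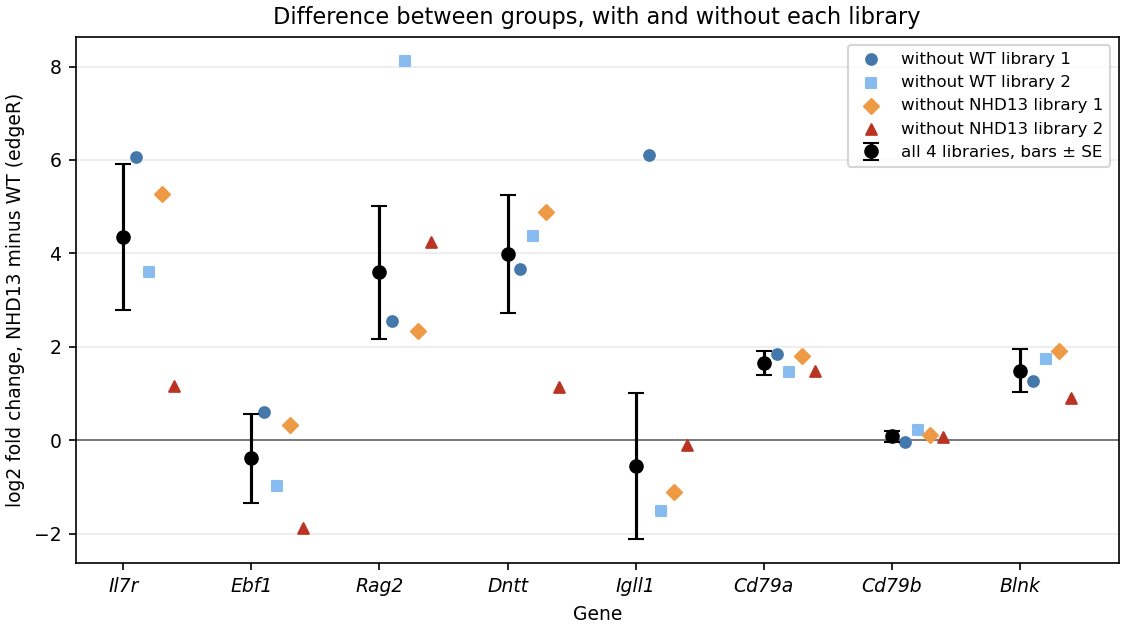
The log2 fold change of NHD13 over WT for the 8 tested genes (black, bars ± SE from edgeR on all 4 libraries) and the same without each library (coloured symbols). Il7r and Dntt drop to 1.15 and 1.14 without NHD13 library 2, Cd79a stays between 1.47 and 1.85, and Igll1 and Ebf1 lie on both sides of 0.

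In all, 8 of the 10 members passed the filter and 1, Cd79a, was called at an adjusted p under 0.05 by edgeR, against 4.28% of the 14853 genes tested (2.07% higher in NHD13). None was called lower, against 2.22% of all genes. At an unadjusted p under 0.05 there were 4, Il7r, Dntt, Cd79a and Blnk, against 26.8% of all genes. DESeq2 called the same 4, all higher, where it called 8.2% of all genes higher, and limma-voom called 1 member, against 4.93% of all genes. Both NHD13 libraries were above both WT libraries for 5 of the 8 tested members, against 30.1% of all genes. The 5 include Rag2, which passed the filter only through its NHD13 libraries. No tested member had both NHD13 libraries below both WT libraries, against 30.3% of all genes, and 60.4% of all genes had groups apart in either direction. The median log2 fold change of the 8 was 1.57 and that of all genes 0.00, where Rag2 entered only through the libraries in which it was high.

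Without Cd79b, the summed level of the other 9 members was 9.31 and 7.17 CPM in WT and 19.1 and 59.3 in NHD13. NHD13 library 2 was thus the highest and held the top value of 5 of the 10 genes. Per transcript length, in CPM per kilobase, the WT means ran from 59.0 for Cd79b to 2.78 for Cd79a, 0.894 for Blnk, 0.386 for Dntt, 0.357 for Igll1, 0.192 for Ebf1 and 0.103 for Il7r, with Rag1, Rag2 and Pax5 below 0.025. Down to Dntt each gene's 2 WT values lay above both of the next, and from Dntt on each gene's values overlapped those of the next. In NHD13 the means were 62.6 for Cd79b, 8.72 for Cd79a, 6.10 for Dntt, 2.51 for Blnk and 2.15 for Il7r, and the Dntt values of 0.852 and 11.3 spanned those of Cd79a and Blnk. Lengths are those of the matching Gencode M21 transcripts.

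Genes most like Cd79a and Il7r were sought by the root-mean-square distance of centred log2 CPM over the 4 libraries, among tested genes that averaged at least 1 on the log2 CPM scale. For Cd79a, the member with the smallest adjusted p, these included Trib2 (distance 0.08), a pseudokinase, and Dok2 (0.12), an adaptor of tyrosine kinase signalling. Trib2 (adjusted p 0.0193) and Dok2 (0.00719) were called higher by edgeR. The call of Trib2 was lost without WT library 1 (0.117), WT library 2 (0.122) or NHD13 library 1 (0.0592), and that of Dok2 without WT library 1 (0.119) or WT library 2 (0.117). For Il7r, the member with the widest range, they were Cd5 (0.30), Trat1 (0.54) and Zap70 (0.55), all genes of T cells. Zap70 was at 0.414 and 0 CPM in WT, and at 0.437 and 12.4 in NHD13 libraries 1 and 2. Trat1 was at 0.161, 0, 0.291 and 11.1 CPM in the same order. Among the members themselves the closest pair was Cd79a and Blnk (0.40), while Il7r and Dntt were further apart, at 1.0.

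Part of the T and NK cell list was high in the same library as Il7r and Dntt. The 16 genes summed to 327 CPM in NHD13 library 2, to 62.7 in NHD13 library 1 and to 140 and 152 in WT. NHD13 library 2 was the highest for 9 of the 16, as it was for 20.2% of all tested genes. None of the 16 was at 0 in any library. In the order WT 1, WT 2, NHD13 1 and NHD13 2, Cd3e, a chain of the T-cell receptor, had levels of 0.713, 0.493, 0.728 and 36.3 CPM. Tcf7, a transcription factor of T cells, was at 0.759, 1.07, 1.22 and 30.1 CPM, Gzmb, a killer cell protease, at 0.184, 0.109, 0.873 and 30.3, and the kinase gene Lck at 15.4, 17.1, 17.5 and 97.3. Cd3d (0.633 CPM) and Cd2 (0.224) had no such excess in NHD13 library 2. Thy1 was higher in NHD13 library 1 (3.14 CPM) than in library 2 (1.63), and Gata3 was at 72.3 and 78.5 CPM in WT against 2.5 and 14.9 in NHD13. Of the 13 tested, edgeR called none, limma-voom none, and DESeq2 4 higher and 1 lower. DESeq2 called 8.2% of all genes higher and 17.5% in either direction. By edgeR 7 of the 13 had an unadjusted p under 0.05, against 26.8% of all genes. The 7 include Gata3, which was lower in NHD13, and Gzmb, which passed the filter on low counts only through its NHD13 libraries. A fit without NHD13 library 1 keeps only the NHD13 library in which part of this list was high, so its calls are not given. The part of these cells in the Il7r and Dntt values was not tested.

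**Figure D3:**
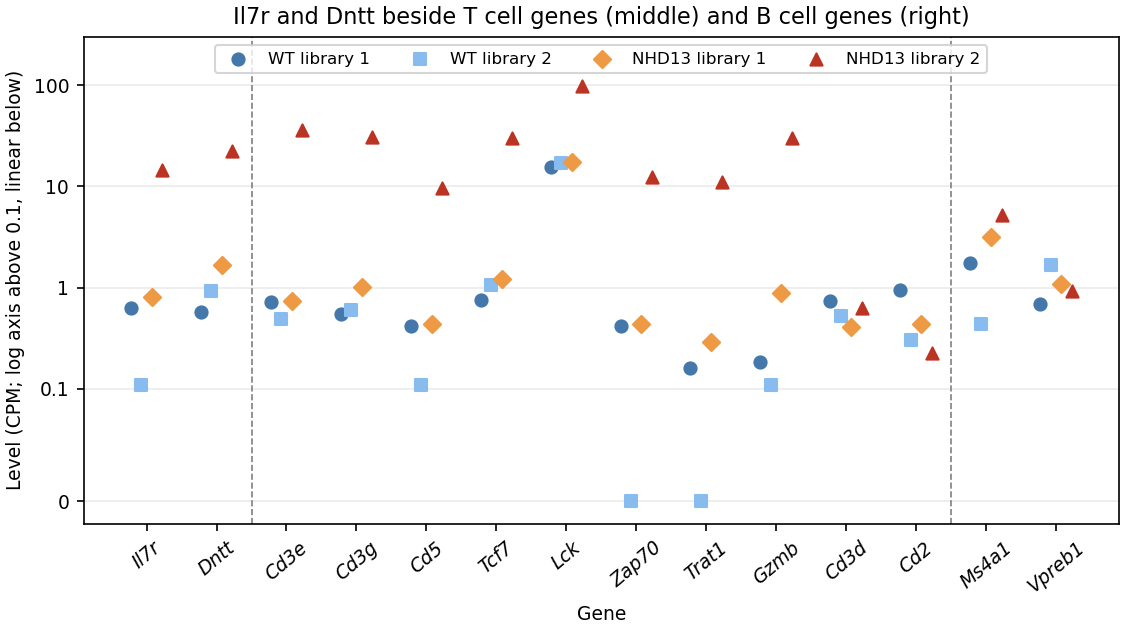
Levels in CPM (logarithmic above 0.1, linear below) of Il7r and Dntt on the left, selected T-cell genes in the middle and the B-cell genes Ms4a1 and Vpreb1 on the right, by library. NHD13 library 2 stands above the others for Il7r, Dntt and most of the T-cell genes shown. Cd3d, Cd2 and Vpreb1 show no such excess, and Ms4a1 reaches 5.18 CPM there against 3.17 in NHD13 library 1. Zap70 and Trat1 were found by their likeness to Il7r. Of the 16 listed T and NK cell genes, NHD13 library 2 was the highest for 9, which do not include Gata3 and Thy1 (not shown).

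The other genes of the surrogate light chain were low in the same libraries. Vpreb1 was at 0.69 and 1.67 CPM in WT and 1.08 and 0.918 in NHD13. Vpreb2 had counts only in NHD13 library 2, at 0.0816 CPM. Of 12 matched genes of mature B and plasma cells 11 were tested, and 1 rose, against 2.07% of all genes. This was Igj, the joining chain of secreted antibodies, at 919 and 1095 CPM in WT and 2063 and 2250 in NHD13 (log2 fold change 1.10 ± 0.12, adjusted p 0.0228 by edgeR). The call of Igj was lost without WT library 1 (0.174), WT library 2 (0.123) or NHD13 library 1 (0.0614). DESeq2 called 3 of the 11 higher, against 8.2% of all genes. The B-cell surface gene Ms4a1 was at 1.75 and 0.438 CPM in WT and 3.17 and 5.18 in NHD13 (adjusted p 0.182 by edgeR). Both NHD13 libraries lay above both WT libraries for 6 of the 11, against 30.1% of all genes. The 6 include Cd40 (5 and 2 counts in WT), which passed the filter on low counts only through its NHD13 libraries. They lay below both WT libraries for 2 of the 11, both genes of mature B cells, against 30.3% of all genes. The complement receptor gene Cr2 was at 3.33 and 2.52 CPM in WT and 1.08 and 1.57 in NHD13 (adjusted p 0.171), and Fcer2a, which encodes CD23, at 2.14 and 2.11 against 0.466 and 1.16 (0.213).

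Partners of Il7r in interleukin 7 signalling were all tested, and 1 of 12 rose and 1 fell. By edgeR 2.07% of all genes rose and 2.22% fell. The median log2 fold change of the 12 was -0.04. Il2rg, the common gamma chain that pairs with Il7r, was at 219 and 249 CPM in WT and 350 and 365 in NHD13 (0.61 ± 0.10, adjusted p 0.0474). Pik3r1, a regulatory subunit of phosphoinositide 3-kinase, fell from 305 and 295 CPM to 127 and 136 (-1.19 ± 0.09, adjusted p 0.0123). The kinase genes Jak1 (-0.17 ± 0.13) and Jak3 (0.00 ± 0.14), and Stat5a (-0.04 ± 0.10) and Stat5b (-0.04 ± 0.10), all had log2 fold changes smaller than 2 SE. Cish, a target of STAT5, had -1.0 ± 0.22 (adjusted p 0.0738), and the survival gene Bcl2 -1.09 ± 0.26 (0.0853), both called lower by DESeq2. The call of Il2rg was lost without WT library 1 (0.261), WT library 2 (0.189), NHD13 library 1 (0.121) or NHD13 library 2 (0.0833), and that of Pik3r1 without WT library 1 (0.148) or WT library 2 (0.122).

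Transcription factors of lymphoid and B-lineage cells had log2 fold changes above 0 for 14 of 17 tested genes, against 50.1% of all genes, with a median of 0.52. By edgeR 1 rose, against 2.07% of all genes. Irf4, which acts in light chain rearrangement and in plasma cells, was at 1.43 and 0.985 CPM in WT and 7.83 and 6.90 in NHD13 (2.60 ± 0.34, adjusted p 0.0334). Pou2af1, a B-cell coactivator, was at 1.79 and 0.629 CPM in WT and 9.02 and 13.0 in NHD13 (3.17 ± 0.57, adjusted p 0.0553, or 1.31e-06 by DESeq2). Zfp521, which is known to oppose Ebf1, had -0.70 ± 0.13 (adjusted p 0.0569). The call of Irf4 was lost without WT library 1 (0.199), WT library 2 (0.190), NHD13 library 1 (0.102) or NHD13 library 2 (0.0507). DESeq2 called 4 higher and 1 lower in this list, against 8.2% of all genes higher and 17.5% in either direction.

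Of 18 tested genes of the surrogate light chain, the B-cell receptor and its signalling, 1 rose by edgeR, against 2.07% of all genes. None fell, against 2.22% of all genes. Their median log2 fold change was 0.26, and DESeq2 called 5 higher, against 8.2% of all genes. Grb2, an adaptor that binds Blnk, was at 24.9 and 26.7 CPM in WT and 46.2 and 42.8 in NHD13 (0.78 ± 0.12, adjusted p 0.0440). Lat2, an adaptor of B and myeloid cells, was at 6.67 and 5.58 CPM in WT and 179 and 49.4 in NHD13 (4.22 ± 0.70, adjusted p 0.0501). Syk, the kinase that phosphorylates Blnk, had 0.71 ± 0.19 (adjusted p 0.102), and Btk 0.85 ± 0.31 (0.168). The call of Grb2 was lost without WT library 1 (0.252), WT library 2 (0.205), NHD13 library 1 (0.12) or NHD13 library 2 (0.0562).

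Of 12 genes that act in the making or repair of breaks by Rag proteins edgeR called none, DESeq2 2 (both higher, against 8.2% of all genes) and limma-voom 0. By edgeR 3 of the 12 (Prkdc, Hmgb1 and Hmgb2) had an unadjusted p under 0.05, against 26.8% of all genes. Their median log2 fold change was 0.06. Prkdc, the catalytic subunit of DNA-PK, had 1.01 ± 0.23 (adjusted p 0.0759) and Hmgb2, a cofactor of Rag cutting, 0.83 ± 0.19 (0.0767), and both were called higher by DESeq2. Hmgb1 had 0.26 ± 0.09 (0.146). The nonhomologous end joining genes Lig4 (0.02 ± 0.30), Xrcc6 (0.04 ± 0.15) and Xrcc5 (0.07 ± 0.10) were near 0. Of 13 tested genes of early lymphoid progenitors edgeR also called none, DESeq2 3 (all higher, against 8.2% of all genes) and limma-voom 0, and the median was 0.68. By edgeR 4 of the 13 had an unadjusted p under 0.05, against 26.8% of all genes. Among these 4, Ccr7 passed the filter on low counts only through its NHD13 libraries. Ly6d, a marker of B-committed progenitors, was at 3.84 and 1.97 CPM in WT against 7.97 and 9.35 in NHD13 (adjusted p 0.0938 by edgeR). Sox4, a factor of early B cells, had a log2 fold change of 0.68 ± 0.19 (0.106).

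**Figure D4:**
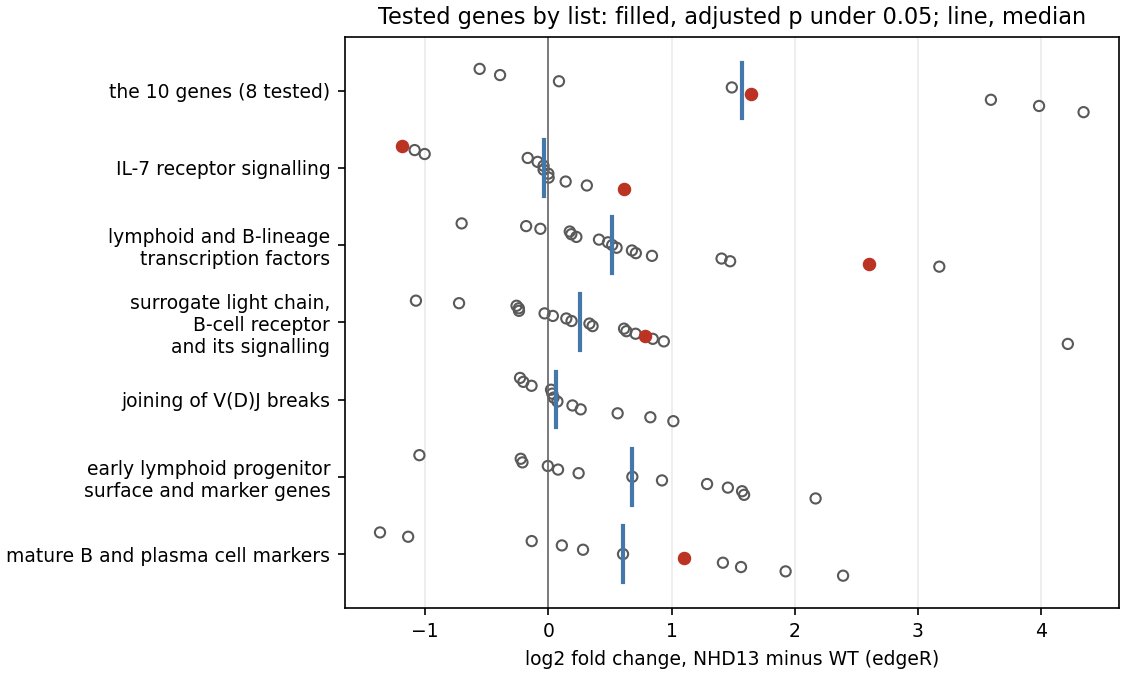
The log2 fold change of NHD13 over WT by edgeR for each tested gene of the set and of 6 related lists (circles, filled where the adjusted p is under 0.05), with the median of each list as a vertical line. Genes were called in 4 of the 6 related lists, and the medians of the 6 related lists lay between -0.04 and 0.68.

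The sorted cells carried stem cell genes in every library. Kit ranged from 991 to 1271 CPM and Slamf1, which encodes CD150, from 117 to 143. Of 10 stem cell genes 1 fell, against 2.22% of all genes. This was Hlf, a factor of stem cells (log2 fold change -1.72 ± 0.24, adjusted p 0.0373 by edgeR), a call lost without WT library 1 or WT library 2. DESeq2 called 5 of the 10 lower and limma-voom 2, against 17.5% and 4.93% of all genes called in either direction. For 6 of the 10 both NHD13 libraries lay below both WT libraries, against 30.3% of all genes. Cd48, a gene of later progenitors, rose (5.63 ± 0.15, 0.00147), a call lost without WT library 1 (0.063) or WT library 2 (0.0722). Although the sort removed cells with CD34, Cd34 was detected in all 4 libraries, at 21.4 to 138 CPM. Flt3 ranged from 4.33 CPM in NHD13 library 2 to 59.0 in NHD13 library 1, so the library high in Il7r and Dntt was the lowest in this receptor of lymphoid progenitors. Late granulocyte markers summed to 2752 CPM in NHD13 library 1 and to between 273 and 361 in the other libraries, with none of the 8 at 0, and the same library was the highest for Rag2. By edgeR none of the 8 was called (1 at an unadjusted p under 0.05, Ngp), nor by DESeq2 or limma-voom. A fit without NHD13 library 2 keeps only the NHD13 library in which these markers were high, so its calls are not given. Plasmacytoid dendritic cell markers summed to 270 and 255 CPM in WT and 538 and 348 in NHD13, with Siglech, their defining receptor, at 1.36, 0.465, 0.437 and 0.0612. Of 6 tested, edgeR called none (2 at an unadjusted p under 0.05, Pld4 and Ly6c2), limma-voom none and DESeq2 2 higher. Over all genes tested, 26.8% had an unadjusted p under 0.05 by edgeR, and DESeq2 called 8.2% higher. The part of these cells in the values of the 10 genes was not tested.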

How the data were processed

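Per the labels' protocols, cDNA was made from 10 ng of RNA with the SMARTer Ultra Low kit and read as 75 bp pairs. Bowtie 0.12.2 and the build mm9 are named in the submitters' processing notes. No source used here names the counting program or its use of strand. The deposited values are raw counts per RefSeq transcript, with no normalisation by the authors, for 33018 transcripts.

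For each symbol the transcript with the largest sum of counts was kept. The test was the robust quasi-likelihood fit of edgeR 4.0.16 in R 4.3.3, after its default filter and TMM scaling, with p-values adjusted by Benjamini-Hochberg over all genes tested. The standard error is the log2 fold change divided by the root of F. DESeq2 1.42.0, limma-voom (limma 3.58.1), other scalings and filters, a non-robust fit, summed transcripts, a replicate block and leaving out each library were alternatives. Named genes were all 10 members and, of each list, called genes or those with the smallest p, and the 3 genes nearest in pattern to Cd79a and to Il7r; some genes this takes are left out here. Other T-cell, B-cell, gate and signalling genes named beside a list were chosen after their values were seen. Members and lists were chosen with earlier results of these data known. Libraries of a group differed beyond sampling noise (mean chi-square per gene 33.8 in WT, 61.6 in NHD13), so none is a duplicate deposit of another, which does not show that they are independent.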

Additional observations from a re-analysis of the deposited data

How the results depend on the processing

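Of the 14853 genes tested, 636 were called by edgeR. The count was 1138 without a filter on low counts, 1066 with at least 1 CPM in both libraries of a group, 2604 by DESeq2, 402 with counts summed over transcripts and 107 with the replicate number as a block. Leaving out 1 library gave 0 to 990 calls: 0 without WT library 1 or 2 (2332 and 2605 at an unadjusted p under 0.05), 270 without NHD13 library 1 and 990 without NHD13 library 2. Such fits take their spread from the group that keeps a pair. Of the members, 1 was called higher by edgeR, against 4 by DESeq2, 0 with library totals only, 0 with summed transcripts and 0 with the replicate block. Without 1 library the number was 0 to 1. The replicate numbers do not show paired libraries (deviations of equal numbers correlated at -0.21 across genes). With crossed numbers as a block, chosen after seeing the data, 647 genes and 2 members were called. The sign of uncalled members turned for Ebf1 without WT library 1 (0.60) and NHD13 library 1 (0.32), for Igll1 by limma-voom (1.03), with the replicate block (0.50), the crossed block (0.13) and without WT library 1 (6.12), and for Cd79b without WT library 1 (-0.032). Without 1 library the log2 fold change ranged from -1.89 to 0.60 for Ebf1, from -1.52 to 6.12 for Igll1 and from -0.032 to 0.21 for Cd79b. The causes were not tested. Il7r, Rag2, Dntt, Cd79a and Blnk kept a log2 fold change above 0 in every setting that gave a value.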
